A study of Mus musculus with 6 samples.

Results

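The endoplasmic reticulum (ER) stress and ATF4 response was followed through 10 mouse genes, Atf4, Ddit3, Trib3, Asns, Chac1, Fgf21, Hspa5, Herpud1, Xbp1 and Dnajb9. They were chosen by name as members of the integrated stress response and the unfolded protein response, out of 56884 genes in the mouse count table. All 10 reached the minimum of 10 counts summed over the 6 libraries and were among the 18018 genes tested. The libraries are labelled as liver of male athymic BALB/c (nu/nu) mice, which lack T cells of thymic origin and had human hepatocellular carcinoma cells of the QGY-7703 line implanted into the liver at 6 weeks of age. Nearly all counts were human in one group and mouse in the other, so whether both groups sampled the same mix of tumor and liver is in doubt, and this difference and the treatment cannot be told apart in any fold change below. Both groups received an adeno-associated virus (AAV8) with the hepatocyte-active TBG promoter 1 week after implantation and were kept for 3 further weeks. The virus carried a control siRNA in the siControl group (3 libraries, labelled WT) and an siRNA against mouse Aatf in the siAATF group (3 libraries, labelled KD). AATF is the apoptosis antagonizing transcription factor.

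Secretory cells such as hepatocytes fold large amounts of protein in the ER. When unfolded protein builds up, the sensors PERK, IRE1 and ATF6 start the unfolded protein response. PERK phosphorylates eIF2alpha, which slows translation in general but favours translation of ATF4. Amino acid shortage, viral RNA and heme deficiency reach eIF2alpha through the kinases GCN2, PKR and HRI, and the shared output is called the integrated stress response. ATF4 turns on genes of amino acid supply and, with prolonged stress, CHOP (the product of Ddit3), which favours cell death. IRE1 splices the Xbp1 mRNA, and XBP1 and ATF6 raise chaperones and the machinery that degrades misfolded ER protein. Since ATF4 and XBP1 are controlled by translation and splicing, counts per gene measure the RNA of Atf4 and Xbp1 but not the activity of these factors.

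The promoters show which of the known response elements the 10 genes carry close to their start. The 250 bases before the start are printed for the 5 genes with a match there and for Ddit3, the gene with the clearest difference between the groups. They are RefSeq sequences of GRCm38.p6, an earlier build than the GRCm39 assembly behind the counts, and run 5′ to 3′ along each gene. By that build, Hspa5 lies at chr2:34771840-34772089 on the plus strand, Herpud1 lies at chr8:94386179-94386428 on the plus strand, Asns lies at chr6:7693210-7693459 on the minus strand, Chac1 lies at chr2:119350992-119351241 on the plus strand, Fgf21 lies at chr7:45615491-45615740 on the minus strand and Ddit3 lies at chr10:127290543-127290792 on the plus strand. Capitals mark matches, on either strand, to the CARE core TGATGNAA read by ATF4 complexes, the ER stress response element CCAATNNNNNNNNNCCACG, or the ER stress response element II ATTGGNCCACG.
Hspa5: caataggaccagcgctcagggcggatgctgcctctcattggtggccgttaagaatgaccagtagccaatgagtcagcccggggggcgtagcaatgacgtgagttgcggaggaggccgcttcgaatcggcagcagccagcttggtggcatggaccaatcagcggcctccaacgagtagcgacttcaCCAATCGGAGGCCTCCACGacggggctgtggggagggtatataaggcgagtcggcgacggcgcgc
Herpud1: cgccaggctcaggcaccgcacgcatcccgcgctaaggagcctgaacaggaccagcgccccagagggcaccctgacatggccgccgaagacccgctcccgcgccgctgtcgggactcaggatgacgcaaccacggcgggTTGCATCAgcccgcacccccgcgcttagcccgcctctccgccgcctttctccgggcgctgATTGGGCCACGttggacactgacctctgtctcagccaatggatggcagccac
Asns: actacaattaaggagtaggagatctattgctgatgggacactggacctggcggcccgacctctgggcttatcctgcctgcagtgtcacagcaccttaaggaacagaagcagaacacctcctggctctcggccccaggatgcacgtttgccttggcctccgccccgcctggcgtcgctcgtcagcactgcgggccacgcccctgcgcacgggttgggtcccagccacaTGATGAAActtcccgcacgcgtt
Chac1: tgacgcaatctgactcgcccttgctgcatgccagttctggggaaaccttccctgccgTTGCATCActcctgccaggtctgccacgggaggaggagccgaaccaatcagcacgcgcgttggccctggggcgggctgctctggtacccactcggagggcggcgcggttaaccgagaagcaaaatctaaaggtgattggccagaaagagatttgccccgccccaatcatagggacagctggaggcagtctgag
Fgf21: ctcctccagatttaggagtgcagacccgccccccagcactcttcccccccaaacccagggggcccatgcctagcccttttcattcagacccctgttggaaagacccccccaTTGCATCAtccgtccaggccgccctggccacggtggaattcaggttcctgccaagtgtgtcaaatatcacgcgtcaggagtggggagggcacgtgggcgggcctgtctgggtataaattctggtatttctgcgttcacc
Ddit3: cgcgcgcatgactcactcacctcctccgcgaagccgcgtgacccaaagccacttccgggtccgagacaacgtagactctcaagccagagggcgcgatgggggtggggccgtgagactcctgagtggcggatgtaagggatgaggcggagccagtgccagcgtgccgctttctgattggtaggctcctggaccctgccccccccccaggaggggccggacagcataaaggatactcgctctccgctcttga

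Capitals in Hspa5 mark the ER stress response element, 65 to 47 bases before the start. Herpud1 held an ER stress response element II at 52 to 42 bases and, apart from it, a CARE core on the opposite strand at 112 to 105 bases. The CARE core lay 23 to 16 bases before the start in Asns, and on the opposite strand at 193 to 186 bases in Chac1 and at 139 to 132 bases in Fgf21. Trib3 had a match on the opposite strand within the 50 bases after its start. In all, 5 of 10 members held a CARE core, against 3.97% of the 32851 RefSeq windows of 300 bases. The longer elements were rarer, at 0.119% of windows for the ER stress response element and 0.0365% for element II. The unfolded protein response element TGACGTGG, present in 0.676% of windows, had no match in the members. A match describes letters only, and Atf4, Ddit3, Xbp1 and Dnajb9 had none within these 300 bases.

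Depth differed strongly between the groups. The siControl libraries held 213022 to 913584 mouse counts beside 98.07% to 99.22% human counts, and the siAATF libraries 11835898 to 42563694 mouse counts beside 0.97% to 2.14% human counts. A floor of 3 counts stood at 3.28 to 14.1 CPM (counts scaled per 1e+06 of the mouse total) in siControl and at most 0.254 CPM in siAATF, so that weakly expressed members are poorly resolved in siControl. The floors cover counting error only, while the intervals of fold changes include the spread between libraries. Nothing in the labels says how the 3 libraries of a group relate to animals, so p-values measure the spread between these libraries. Aatf RNA itself was not called lower in the libraries labelled siAATF. It had 9.63, 2.42 and 12.8 CPM, scaled by TMM as are all CPM below, in siControl and 13.2, 22.0 and 18.9 in siAATF, a log2 fold change of 0.93 (SE 0.47, adjusted p = 0.152, edgeR quasi-likelihood test, Benjamini-Hochberg). In siControl replicate 2 the Aatf level lay under the floor of 3 counts, so its difference is poorly resolved. By immunoblot the paper reports silencing of AATF protein in the tissue around the tumor of siAATF mice, a measure not taken here. Directions below refer to the libraries labelled siAATF and siControl.

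Markers of cell types moved with the groups as well. Beside the counts that follow, 17.6% of all genes tested were called higher and 14.4% lower, at an adjusted p under 0.05. Of 10 hepatocyte markers, 9 were called higher in siAATF, and their summed level was 7762 to 18550 CPM in the siControl libraries and 59140 to 176300 in those of siAATF. As a share of unscaled mouse counts they made up 1.51% to 3.29% in siControl and 2.48% to 9.09% in siAATF, where replicate 2 lay inside the siControl range. Of 10 fibroblast and stellate cell markers, 9 were called lower, with siControl sums of 8746 to 12840 CPM and siAATF sums of 346 to 542. Macrophage markers were called lower in 6 of 10 (792 to 3016 against 150 to 251 CPM), endothelial markers lower in 5 and higher in 1 of 10 (405 to 551 against 103 to 248 CPM), neutrophil markers lower in 5 of 8 (92.3 to 1901 against 2.42 to 138 CPM), and cholangiocyte markers lower in 4 of 7 tested (1147 to 2331 against 76.2 to 78.8 CPM). The 7 tested B and plasma cell markers were not called, with sums of 84.6 to 150 CPM against 131 to 345 CPM, a direction that turned for unscaled shares (0.0164% to 0.0294% against 0.0055% to 0.0178%), and Mzb1 and Cftr had no count in siControl. In bulk RNA, fewer cells of a type and less RNA per cell cannot be told apart. The part of these shifts in the results on the stress genes was not tested.

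Within each group, levels per length (TPM, transcript counts divided by gene length and scaled to a common total) set the 10 genes in nearly the same order. Hspa5, the ER chaperone BiP, was highest in siControl (504 ± 170 TPM, SD, n = 3), followed by Atf4 (419 ± 73.6), Xbp1 (195 ± 31.9), Ddit3 (171 ± 71.3), Herpud1 (102 ± 39.0), Dnajb9 (52.0 ± 20.8), Asns (28.0 ± 11.96), Trib3 (18.8 ± 10.95), Chac1 (8.94 ± 3.29) and Fgf21 (3.94 ± 6.82). The library ranges of neighbours overlapped except between Atf4 and Xbp1 and between Herpud1 and Dnajb9. In siAATF the order again began with Hspa5 (201 ± 41.2 TPM), Atf4 (111 ± 61.7), Xbp1 (67.9 ± 43.2) and Herpud1 (50.8 ± 14.9), whose ranges overlapped. Dnajb9 (15.3 ± 1.16), Ddit3 (13 ± 1.53) and Asns (10.3 ± 8.13) came next, and Trib3 (2.21 ± 1.70), Fgf21 (0.728 ± 0.519) and Chac1 (0.712 ± 0.854) last, with gaps between the ranges of Herpud1 and Dnajb9 and of Trib3 and Fgf21. Ddit3 went from place 4 to place 6, from just above Herpud1 in siControl, with overlapping ranges, to well below it in siAATF, with ranges apart. TPM values are read here within a group only, since the abundant RNA of siAATF libraries takes up more of each library.

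**Figure D1:**
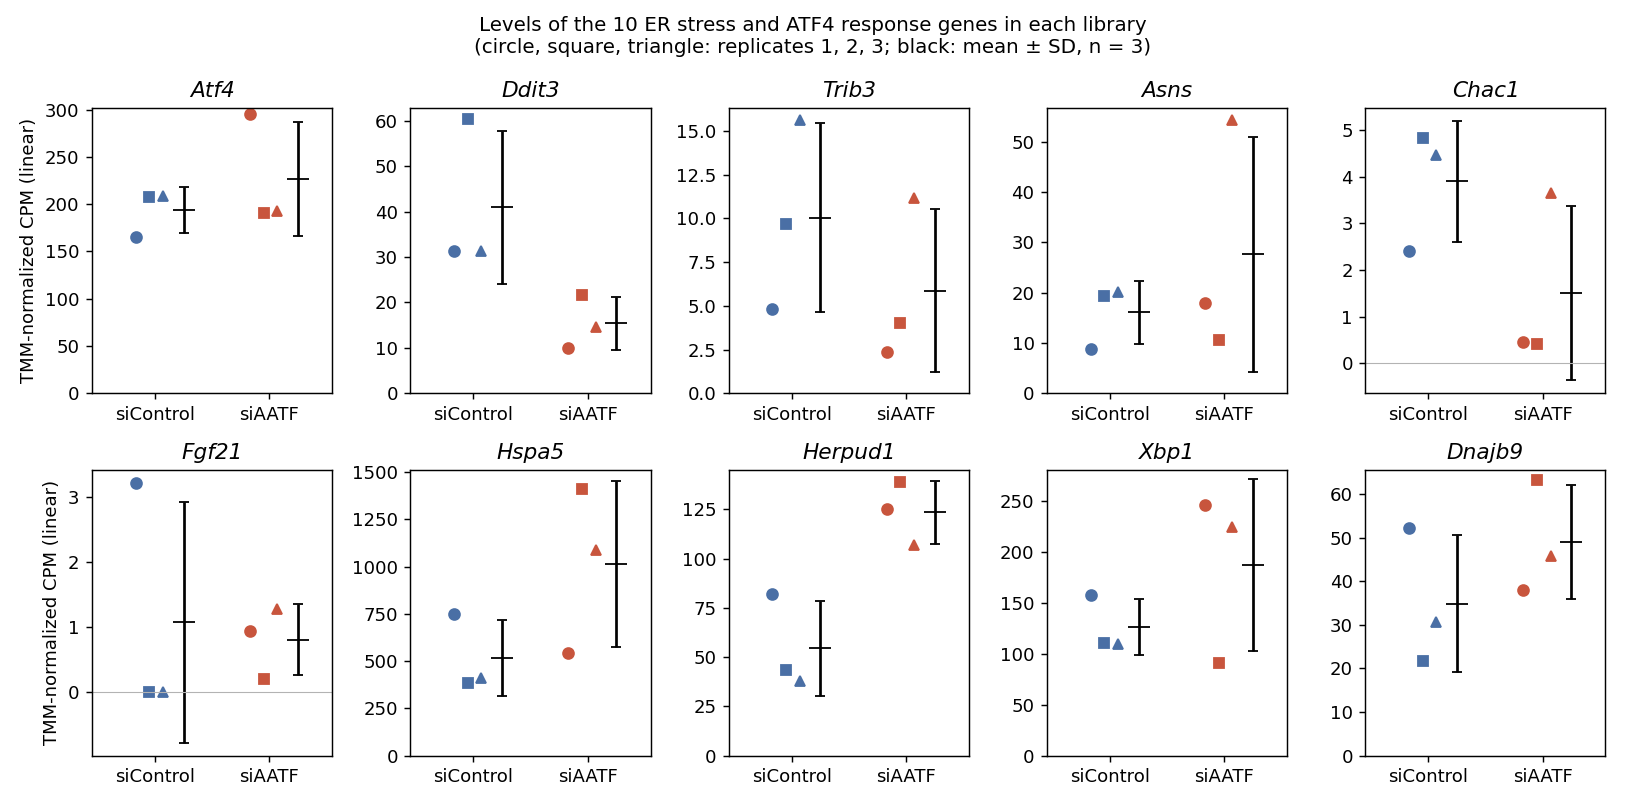
TMM-normalized CPM (linear axis) of the 10 genes in each library, by group; circle, square and triangle are replicates 1, 2 and 3, and black marks are the mean ± SD (n = 3). Ddit3 is lower in every siAATF library and Herpud1 higher, per TMM-scaled mouse count, and the groups overlap for the other 8 genes.

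Between the groups, 1 of the 10 genes was called higher in siAATF (Herpud1), 1 was called lower (Ddit3) and 8 were not called, by edgeR's quasi-likelihood test on TMM-scaled mouse counts at an adjusted p under 0.05. Among all genes tested, 17.6% were called higher and 14.4% lower, so the members were not called more often than other genes. Their groups overlapped for 8 of 10, with 1 gene above and 1 below, where 34.5% of all genes had every siAATF library above and 18.1% every siAATF library below. By the study's rule, which asks for p under 0.05 without adjustment and for at least 2 on the log2 scale, and which called 13.6% of all genes higher and 13.1% lower, no member passed, although 2 had an unadjusted p under 0.05 in edgeR and DESeq2 and limma-voom each called 1 higher and 1 lower by adjusted p. The median gene stood at a log2 fold change of 0.50 under TMM, and the median of the 10 members at 0.34. That shift of the median gene was -1.30 with scaling on mouse library size alone and 4.66 with scaling on human plus mouse counts. Values relative to the median gene are therefore given beside the main results.

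**Figure D2:**
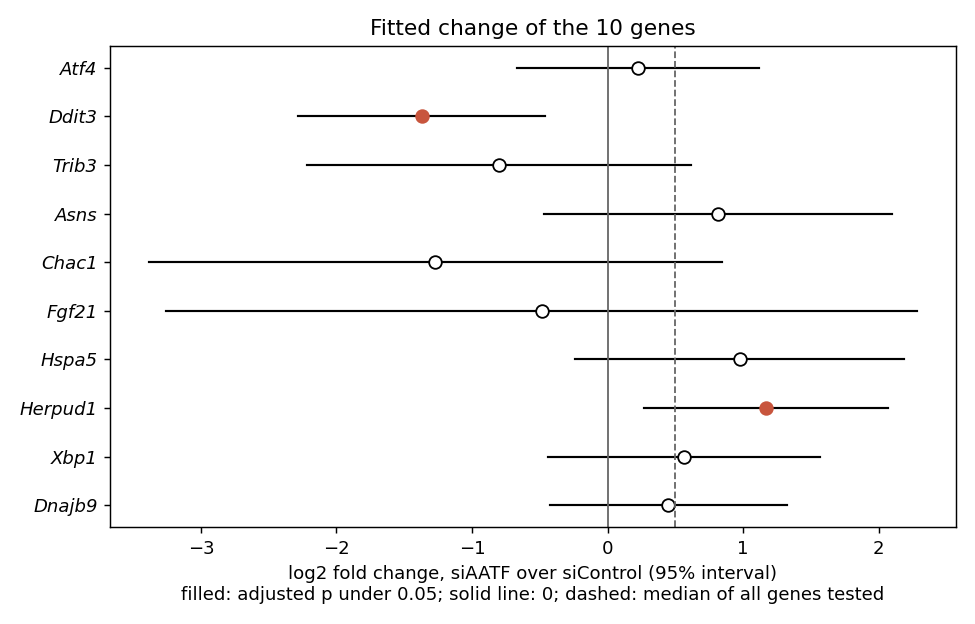
Fitted log2 fold change of each gene, siAATF over siControl, with its 95% interval; filled points have an adjusted p under 0.05, and the dashed line is the median of all genes tested (0.50). Ddit3 is at -1.37 and Herpud1 at 1.17 under TMM scaling, with Ddit3 turning to 2.92 when scaled on human plus mouse counts and Herpud1 to -0.63 on mouse library size alone.

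Atf4 (ENSMUSG00000042406.9, chromosome 15 of GRCm39, 80139385 to 80141742), the transcription factor at the head of the integrated stress response, had 165, 208 and 209 CPM in siControl and 296, 191 and 193 CPM in siAATF. Replicate 1 of siAATF was the highest library and the other two lay inside the siControl range. The log2 fold change was 0.23 (SE 0.41, 95% interval -0.67 to 1.12, adjusted p = 0.703), so that a change of either sign within these bounds is not resolved. Relative to the median gene it was -0.28.

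Ddit3 (ENSMUSG00000025408.16, chromosome 10, 127126643 to 127132157), which encodes CHOP, had 31.3, 60.4 and 31.2 CPM in siControl and 9.94, 21.6 and 14.6 CPM in siAATF. Every siAATF library was below every siControl library, on 39, 25 and 56 reads in siControl and 288, 107 and 263 in siAATF. The log2 fold change was -1.37 (SE 0.42, adjusted p = 0.0251), a level 2.59-fold lower, or -1.87 relative to the median gene. Relative to the median gene Ddit3 was lower in all 17 alternatives, from -2.45 to -1.23, while its own log2 fold change turned to 2.92 when counts were scaled on human plus mouse totals. The call was lost without siControl replicate 2 (log2 fold change -1.04, adjusted p = 0.105), siControl replicate 3 (-1.56, adjusted p = 0.052) or siAATF replicate 1 (-1.10, adjusted p = 0.0823). On the opposite strand 68 bases of Ddit3 overlap Mars1, itself called higher, and reads there may not be told apart.

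The other ATF4 targets among the members were uneven within the groups. Trib3, a pseudokinase that dampens ATF4 and AKT signalling, had 4.82, 9.66 and 15.6 CPM in siControl and 2.38, 4.03 and 11.2 CPM in siAATF (log2 fold change -0.80, SE 0.65, adjusted p = 0.365). Chac1, a glutathione-degrading enzyme, had 2.41, 4.83 and 4.46 CPM in siControl and 0.449, 0.403 and 3.66 CPM in siAATF (-1.27, SE 0.97, adjusted p = 0.338), on 2 to 8 reads in siControl. Asns, the asparagine synthetase, had 8.83, 19.3 and 20.1 CPM in siControl and 18.0, 10.5 and 54.2 CPM in siAATF (0.81, SE 0.59, adjusted p = 0.315). Relative to the median gene, Trib3 stood at -1.30, Chac1 at -1.77 and Asns at 0.31. In each of these genes siAATF replicate 3 was far above the other siAATF libraries, by 3.48-fold over their mean for Trib3, 3.81-fold for Asns and 8.59-fold for Chac1, whereas Atf4 (0.791-fold), Ddit3 (0.926-fold) and Herpud1 (0.809-fold) were not raised in it. The same library was 158-fold above the others for S100a8, a neutrophil gene, and 7.06-fold for Fgb, a fibrinogen gene of the hepatic acute phase, and their part in the result was not tested. Without it, Trib3 (-1.67, adjusted p = 0.0492) and Chac1 (-3.02, adjusted p = 0.0375) were called lower and Asns stood at -0.08 (adjusted p = 0.922). Trib3 rested on siControl replicate 3 as well, and stood at -0.19 (adjusted p = 0.891) without that library.

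The spread of these genes can be set against that of other genes. The highest siAATF library exceeded the lowest 9.08-fold for Chac1, 6.33-fold for Fgf21, 5.17-fold for Asns and 4.68-fold for Trib3, where the median gene with a count in each library differed 2.23-fold. The folds of Chac1 and Fgf21 rest on 2 reads and 1 read in siAATF replicate 2, under the floor of 3, so their size is not resolved. Asns was more variable than 84.4% of those genes and Trib3 than 82.4%. In siControl the highest library exceeded the lowest 3.24-fold for Trib3, more than in 83.0% of genes, and 2.27-fold for Asns, more than in 66.1%. In siAATF, Herpud1 (1.30-fold) and Atf4 (1.55-fold) were among the steadier genes, with 9.28% and 21.7% of genes less variable. In siControl, Atf4 was again steady (1.26-fold, 12.4% of genes less variable), and Herpud1 was not (2.16-fold, 62.0%). By this measure Trib3 varied in both groups and Asns more so in siAATF, while the RNA of Atf4 varied less than that of most genes in either group. The genes compared were not matched for read depth. In siControl, Trib3 had 6, 4 and 28 reads and Asns 11, 8 and 36, against 206, 86 and 374 for Atf4. The part of counting error in these ranks was not tested.

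Fgf21, a hormone that the liver releases in fasting and stress, was close to the detection limit. It had 4, 0 and 0 reads in siControl and 27, 1 and 23 reads in siAATF, or 3.21, 0 and 0 CPM against 0.932, 0.202 and 1.28 CPM. A count of 0 allows up to 14.1 CPM of the mouse total in siControl replicate 2 and 3.28 CPM in replicate 3, above every siAATF level. The log2 fold change was -0.49 with a 95% interval of -3.26 to 2.28 (adjusted p = 0.802), or -0.99 relative to the median gene, and no difference was detectable at this depth. Its receptors were better resolved. Fgfr4 (log2 fold change 2.86, SE 0.48, adjusted p = 0.000727), Fgfr3 (2.75, SE 0.63, adjusted p = 0.00515) and the co-receptor Klb (2.68, SE 0.83, adjusted p = 0.0264) were called higher and Fgfr1 lower (-2.33, SE 0.43, adjusted p = 0.00127), with 1 of the 5 genes not called. These receptor calls rested on few siControl reads (0 to 17 for Fgfr3 and Fgfr4), and the number called higher was 1 without siControl replicate 3 or with thinned libraries. Of all genes, 9.08% and 13% were called higher in these fits, against 17.6% in the main test. On mouse library size alone 2 receptors were called lower and the other three were not called, and a minimum of 10 counts in each library left 1 receptor to test, which was not called. Fgfr4 and Klb are typical of hepatocytes, whose markers were higher in the same libraries, and Fgfr1 had 21.7 to 30.7 CPM in siControl against 3.83 to 7.93 CPM in siAATF. The part of the marker shift in these receptor calls was not tested.

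The 4 genes of the IRE1 and ATF6 arms had log2 fold changes above 0 under TMM, of which 1 passed the test, and all 4 were below 0 with scaling on mouse library size alone. Relative to the median gene, Herpud1 stood at 0.67, Hspa5 at 0.47, Xbp1 at 0.063 and Dnajb9 at -0.053 under TMM. Herpud1 (ENSMUSG00000031770.17, chromosome 8, 95113066 to 95122005), an ER membrane protein that organizes the degradation of misfolded proteins, had 81.9, 43.5 and 37.9 CPM in siControl and 125, 139 and 107 CPM in siAATF. All siAATF libraries were above all siControl libraries, on 18 to 102 reads in siControl. The log2 fold change was 1.17 (SE 0.41, adjusted p = 0.0473), or 2.25-fold higher and 0.67 above the median gene. It stood above the median gene in all 17 alternatives (0.12 to 1.32), but its own log2 fold change turned to -0.63 on mouse library size alone. The call sat at the threshold and was lost with relative log expression scaling (1.09, adjusted p = 0.057), upper-quartile scaling (0.91, adjusted p = 0.102), libraries thinned to the smallest mouse total (0.51, adjusted p = 0.439), and without siControl replicate 2 (1.04, adjusted p = 0.149) or 3 (0.94, adjusted p = 0.242). An annotated antisense gene overlaps 535 bases of Herpud1 but had only 29 reads over all libraries.

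Hspa5 (ENSMUSG00000026864.14, chromosome 2, 34661982 to 34667559) had 749, 386 and 412 CPM in siControl and 542, 1412 and 1088 CPM in siAATF. Replicates 2 and 3 of siAATF were above every siControl library and replicate 1 was not. Its log2 fold change was 0.97 (SE 0.56, 95% interval -0.24 to 2.18, adjusted p = 0.206). Xbp1, the transcription factor downstream of IRE1, had 158, 111 and 110 CPM in siControl and 246, 90.6 and 225 CPM in siAATF (0.56, SE 0.46, adjusted p = 0.366). Here siAATF replicate 2 was the lowest library, and without it Xbp1 was called higher (0.96, adjusted p = 0.0495). Dnajb9, the BiP co-chaperone ERdj4, had 52.2, 21.7 and 30.7 CPM in siControl and 37.9, 63.3 and 45.7 CPM in siAATF (0.45, SE 0.40, adjusted p = 0.407). Thus replicate 2 was the highest siAATF library for Hspa5, Herpud1 and Dnajb9 and the lowest for Xbp1.

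Ratios between members within a library do not depend on how libraries are scaled. They were taken as counts per kilobase with 0.5 added to each count, for 8 pairs. Per Atf4 RNA, Ddit3 stood at 0.371, 0.571 and 0.292 in siControl and at 0.0652, 0.220 and 0.147 in siAATF, 3.09-fold lower on average of logs and without overlap. It alone among the 8 ratios separated the groups (exact permutation p = 0.1, two-sided, the smallest that 3 against 3 allows, adjusted p = 0.533). Chac1 per Atf4 was 0.0179, 0.0305 and 0.0239 in siControl and 0.00166, 0.00278 and 0.0202 in siAATF (5.19-fold lower on average, exact permutation p = 0.2, adjusted p = 0.533), with replicate 3 of siAATF inside the siControl range. Its log2 difference of -2.38 was -1.65 without siAATF replicate 1 and -3.45 without siAATF replicate 3. Trib3 per Atf4 was 2.31-fold lower on average (exact permutation p = 0.3, adjusted p = 0.6), a log2 difference of -1.21 that ranged from -0.50 without siAATF replicate 1 to -1.92 without siAATF replicate 3, and Asns per Atf4 1.21-fold higher (exact permutation p = 0.9, adjusted p = 0.9), both with overlap. The log2 difference of Asns per Atf4, 0.28, turned to -0.48 without siAATF replicate 3. Per Hspa5, Herpud1 differed 1.24-fold upward, Dnajb9 1.33-fold downward and Xbp1 1.40-fold downward, with overlapping groups and exact permutation p of 0.8, 0.2 and 0.7. The log2 difference turned to -0.10 for Herpud1 without siAATF replicate 1, and to 0.27 for Xbp1 without siAATF replicate 2. Herpud1 per Hspa5 was tight in siControl (0.211, 0.222 and 0.178) and equally so in siAATF replicates 2 and 3 (both 0.189), with replicate 1 at 0.444. Atf4 per Hspa5 was 1.67-fold lower on average in siAATF (exact permutation p = 0.4, adjusted p = 0.64), a log2 difference of -0.74 that was -1.34 without siAATF replicate 1 and -0.34 without siAATF replicate 2.

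**Figure D3:**
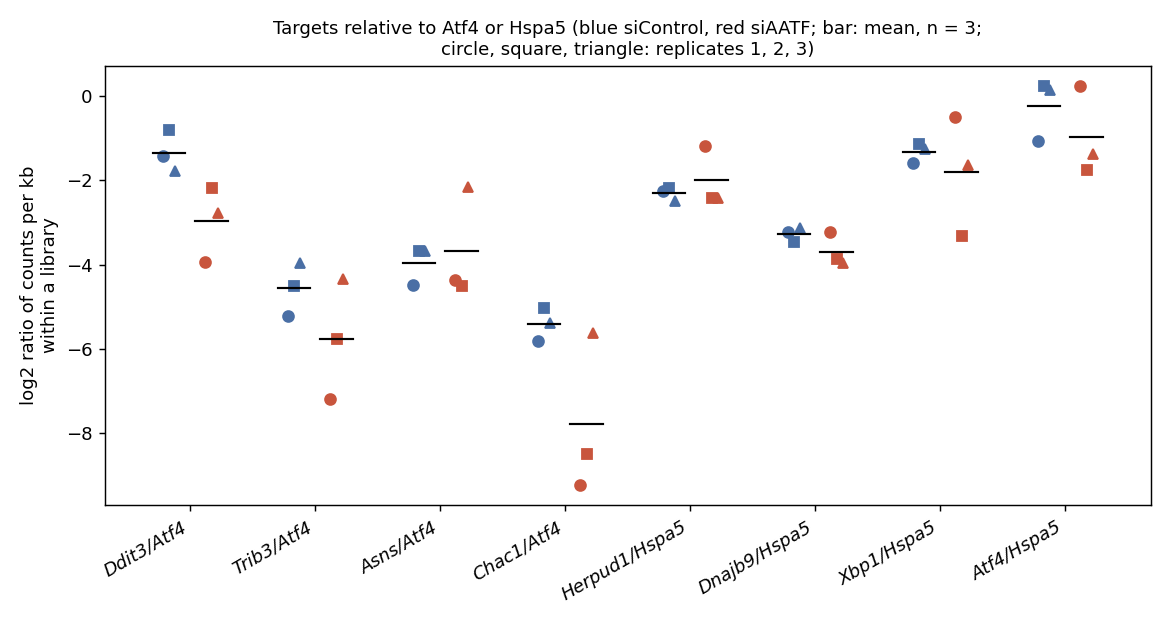
Log2 ratio of counts per kilobase within each library for 8 gene pairs, siControl in blue and siAATF in red; bars are means (n = 3) and circle, square and triangle are replicates 1, 2 and 3. The siAATF libraries lie below the siControl libraries for Ddit3/Atf4 and overlap them for the other 7 ratios.

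Further genes of the response were taken from 9 lists, with 107 genes tested, of which 29 (27.1%) were called higher and 19 (17.8%) lower, beside 17.6% and 14.4% of all genes. Each list but the sensors had its more frequent direction also with relative log expression and upper-quartile scaling, but with human plus mouse counts 7 amino acid supply genes and 6 further ATF4 and CHOP targets were called higher, and with mouse library size alone 10 sensor genes and 5 tRNA ligases were called lower. Under these scalings, in that order, 87.2% of all genes were called higher and 40.4% lower. The sensors and regulators of eIF2alpha were the quietest list. Of its 12 genes, Ppp1r15b, the constitutive subunit of an eIF2alpha phosphatase, was called higher (log2 fold change 1.21, SE 0.38, adjusted p = 0.0286) and 11 were not called, and the list median was -0.66 relative to the median gene. That call was lost when any single siControl library or siAATF replicate 1 was left out, and with thinned libraries, upper-quartile scaling and mouse-library-size scaling, where 2, 2 and 10 sensor genes were called lower. The stress-induced subunit Ppp1r15a, named after its values were seen, was just short of the threshold in the other direction (-1.11, SE 0.41, adjusted p = 0.0556), with 17.7 to 50.7 CPM against 15.5 to 17.6 CPM.

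Of 9 other stress transcription factors, 2 were called higher and 4 lower, with 1 higher without siControl replicate 2 or 3. The number called lower was 1 among genes with 10 counts in each library. Atf3, Nupr1 and Creb3l1 were left out by that filter, with 9, 2 and 4 reads in siAATF replicate 2. On human plus mouse counts 6 were called higher and the others were not called, where 87.2% of all genes were called higher. Creb3l3, a liver factor cleaved at the Golgi like ATF6, was called higher (3.18, SE 0.55, adjusted p = 0.00087), with 19.3 to 69.8 CPM against 299 to 506 CPM, and so was Atf5 (1.75, SE 0.47, adjusted p = 0.0128). Its relative Creb3l1, known for its part in collagen secretion, was called lower (-5.17, SE 0.47, adjusted p = 2.51e-05), at 49.0 to 84.5 CPM against 0.807 to 2.31 CPM, next to the fibroblast markers named above. Atf3, an immediate stress factor and ATF4 target, was called lower (-3.86, SE 0.45, adjusted p = 8.53e-05), with 53.1 to 74.7 CPM against 1.81 to 5.66 CPM. Nfe2l2, the antioxidant factor NRF2, was lower by a smaller amount (-1.25, SE 0.38, adjusted p = 0.0251). The remaining gene called lower was Nupr1, singled out after its values were seen because it is below the read minimum for naming (-4.74, SE 0.67, adjusted p = 0.000245).

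Among 13 tested ATF4 targets of amino acid supply, 3 were called higher and 7 lower, and the list median was -2.68 relative to the median gene. With only genes of at least 10 counts in every library, 1 was called higher and 1 lower and the median turned to 0.30, and with thinned libraries the median was -1.45. The filter of 10 counts drops genes low in either group, among them some called lower. The turned median therefore covers only part of the list. Those called higher were Cth (6.26, SE 0.70, adjusted p = 6.26e-05) and Cbs (4.16, SE 0.67, adjusted p = 0.000593), which make cysteine from homocysteine, and the mitochondrial serine hydroxymethyltransferase Shmt2 (2.33, SE 0.41, adjusted p = 0.000976). Cth and Cbs are abundant in hepatocytes, whose markers moved the same way, and the part of that shift in these calls was not tested. The amino acid carrier subunits Slc7a5 (-2.18, SE 0.46, adjusted p = 0.00336) and Slc3a2 (-1.40, SE 0.38, adjusted p = 0.0133), which form the LAT1 transporter, were called lower. The other genes called lower were below the read minimum for naming. Among them were Phgdh (-5.00) and Psat1 (-4.58), singled out after their values were seen. Of 12 tRNA ligases, 4 were called higher and 8 were not called, led by Eprs1 (2.15, SE 0.44, adjusted p = 0.00264), Aars1 (2.01, SE 0.46, adjusted p = 0.00549) and Mars1 (1.36, SE 0.41, adjusted p = 0.023). Their median was 0.40 above the median gene. The number called higher was 2 when any single siControl library was left out, with upper-quartile scaling or with thinned libraries. In the same fits 9.08% to 13.6% of all genes were called higher.

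Of 11 further targets of ATF4 and CHOP, 5 were called lower and 6 were not called, and their median was -2.53 relative to the median gene. Ero1a, an ER oxidase induced by CHOP and by hypoxia, was called lower (-3.29, SE 0.37, adjusted p = 6.66e-05), at 62.8 to 84.8 CPM against 6.05 to 9.28 CPM. Ddit4, an inhibitor of mTORC1, was also lower (-1.84, SE 0.49, adjusted p = 0.0123). The other three, named after their values were seen and each on a mean under 50 reads, were the secreted glycoprotein gene Stc2 and the pro-apoptotic BH3-only genes Pmaip1 and Bcl2l11, at -5.69, -4.13 and -3.07. The ER oxidase paralog Ero1b, which is not in this list and was also named after its values were seen, went the other way (1.29, SE 0.41, adjusted p = 0.0288), from 14.5 to 33.7 CPM to 41.4 to 69.5 CPM.

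The folding and degradation machinery of the ER had more genes called higher than lower, except with mouse library size alone, where 2 chaperone and 4 degradation genes were called lower. Of 16 chaperones and folding enzymes, 5 were called higher and 1 lower, and the list median was 0.61 above the median gene. The number called higher was 2 without siControl replicate 2, 1 without siControl replicate 3 and 10 without siAATF replicate 2, and the gene called lower was lost in 5 of the 6 fits that leave out a library. Shares of all genes called higher in the first fits named were 12.6%, 9.08% and 20.5%, in that order. With 1 library left out, 9.7% to 14.7% of all genes were called lower. The highest were Dnajc3, the P58IPK co-chaperone that also restrains PERK (2.84, SE 0.50, adjusted p = 0.000974), Hsp90b1, the ER chaperone GRP94 (2.48, SE 0.59, adjusted p = 0.00676), and Calr, the calcium-binding lectin chaperone (2.03, SE 0.61, adjusted p = 0.0224). Hsp90b1 had 464 to 547 CPM in the siControl libraries and 2147 to 3922 in siAATF, where the levels of Hspa5 overlapped. The gene called lower was the collagen-folding isomerase Fkbp14 (-1.38, SE 0.45, adjusted p = 0.0334), named after its values were seen.

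ER-associated degradation, to which Herpud1 belongs, had 8 of 14 genes called higher and 6 not called, with a median 1.04 above the median gene. The number called higher was 4 without siControl replicate 2, 2 without siControl replicate 3 and 5 with thinned libraries, while the median stayed at 0.85 to 1.04 with 1 library left out. Over all genes, 12.6%, 9.08% and 13% were called higher in the same fits, against 17.6% in the main test. Derl3 was the highest (3.08, SE 0.96, adjusted p = 0.0274) but rested on 0 to 2.41 CPM in siControl, and Sel1l, the scaffold of the HRD1 ligase complex, was called higher on more reads (2.33, SE 0.51, adjusted p = 0.00392), as was Edem2 (1.93, SE 0.47, adjusted p = 0.00753). Of 15 tested genes of translocation and of transport to the Golgi, 3 were called higher and 1 lower, with the median at that of all genes. Those called higher numbered 1 without siControl replicate 3, 2 without siControl replicate 2 and 7 without siAATF replicate 2. In that order, 9.08%, 12.6% and 20.5% of all genes were called higher in these fits. Those called higher in the main test were Sec63 (2.16, SE 0.44, adjusted p = 0.00258), Sec62 (1.89, SE 0.45, adjusted p = 0.00627) and the KDEL receptor Kdelr2 (1.68, SE 0.43, adjusted p = 0.00997). The KDEL receptor Kdelr3 was called lower (-5.81, SE 0.50, adjusted p = 2.27e-05), at 16.9 to 29.0 CPM against 0.388 to 0.449 CPM, and is named after its values were seen. The shifts in hepatocyte and fibroblast markers ran beside these calls, and their part in them was not tested.

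**Figure D4:**
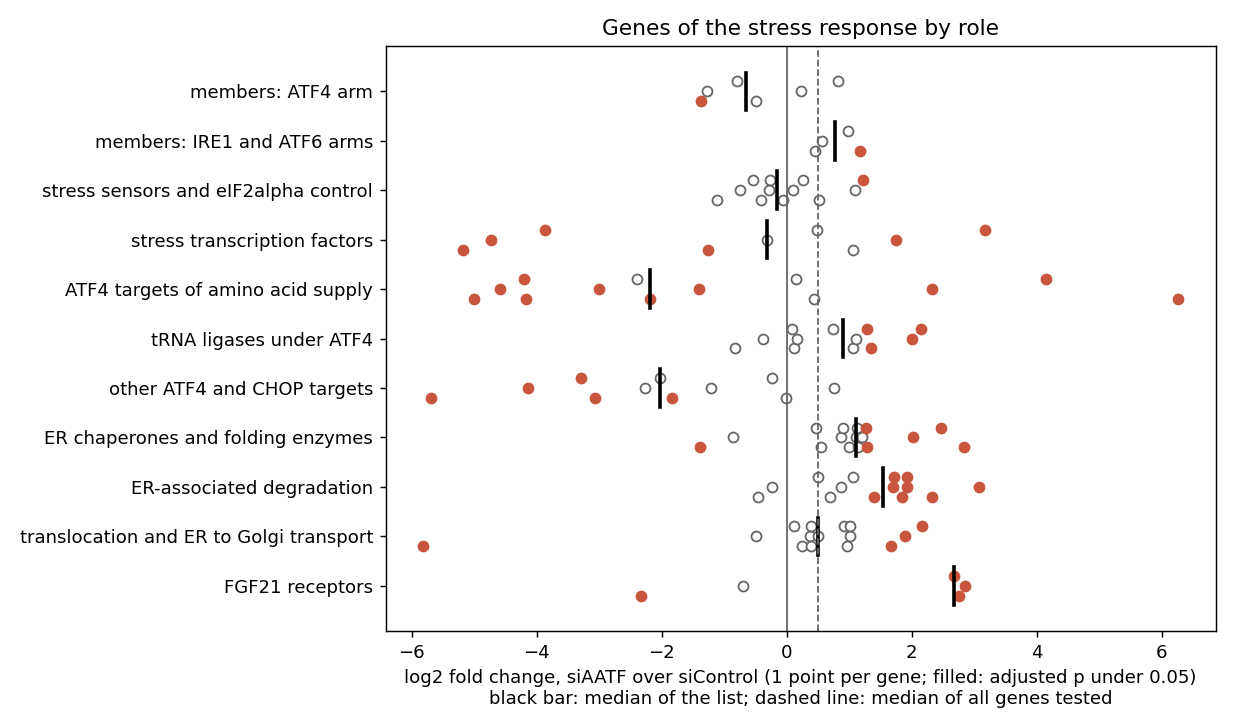
Log2 fold change (siAATF over siControl, TMM scaling) of each tested gene, by list; filled points have an adjusted p under 0.05, black bars are list medians and the dashed line is the median of all genes. Members of both arms lie between -1.37 and 1.17, while ATF4 targets of amino acid supply span -5.00 to 6.26; with scaling on mouse library size alone 6 members turn to values below 0.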

How the data were processed

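Bulk RNA from 6 libraries was prepared with a SMART-Seq kit. The authors trimmed reads, aligned them with STAR 2.7.11 and counted them per gene with featureCounts 2.0.1 against GRCm39 and GRCh38, and deposited raw counts per gene for mouse and human in separate tables, with gene lengths for mouse. DESeq2 1.42.0 and R 4.3.2 are also named in the submitters' notes. Mouse IDs were named with a GENCODE mouse annotation, which matched 56323 of 56884. Human counts served for library totals only, 1 broken human entry was left out, and human counterparts of the genes were not analysed here. A second Ddit3 entry held no reads.

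Genes with at least 10 counts in total (18018) were tested with edgeR 4.0.16 (quasi-likelihood, TMM, group as the only term, R 4.3.3), with Benjamini-Hochberg adjustment over all of them and a threshold of 0.05. The test was also run on counts simulated from a shared profile with few changed genes. That setting is unlike the broad differences here, so it does not check the scaling between groups. CPM used TMM library sizes, and TPM used the lengths in the table. Ratios were compared by two-sided exact permutation tests (scipy 1.17.1), adjusted over 8. Named genes of a list are at most 3 per direction among called genes with a mean of at least 50 counts, and genes named outside this rule are marked as such. That mean is over all libraries, so the deeper siAATF libraries can meet it alone. The rule thus favours genes called higher. Members, lists and tests were chosen with earlier results of these data known. Alternatives were other scalings, filters, tools (DESeq2, limma-voom 3.58.1), thinning to 213022 counts, a replicate block, other call rules and leaving out each library.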

Additional observations from a re-analysis of the deposited data

How the results depend on the processing

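The number of members called higher was 1 in the main test. It was 0 with relative log expression, upper-quartile or mouse-library-size scaling, with thinned libraries and by the study's call rule, 10 with scaling on human plus mouse counts, and 0 to 2 with 1 library left out. The number called lower was 1, and became 5 with mouse-library-size scaling, 0 with scaling on human plus mouse counts or by the study's rule, and 0 to 3 with 1 library left out. In the same settings 87.2% of all genes were called higher on human plus mouse counts and 40.4% lower on mouse library size. With 1 library left out, 9.08% to 21% of all genes were called higher and 9.7% to 14.7% lower. The share called higher was 16% with relative log expression, 13.6% with upper-quartile and 4.15% with mouse-library-size scaling, and 13% with thinned libraries. Of 162 alternative log2 fold changes of single members, 17 changed sign. On mouse library size alone these were Atf4 (-1.54), Asns (-1.02), Hspa5 (-0.93), Herpud1 (-0.63), Xbp1 (-1.15) and Dnajb9 (-1.40). On human plus mouse counts they were Ddit3 (2.92), Trib3 (3.38), Chac1 (2.90) and Fgf21 (3.62), where the scaling itself carries the difference in mouse share. With thinned libraries they were Atf4 (-0.47), Asns (-2.02), Xbp1 (-0.19) and Dnajb9 (-0.56), and with upper-quartile scaling Atf4 (-0.088). With 1 library left out, Asns ranged from -0.076 to 1.24 and Fgf21 from -1.29 to 6.22, the latter without siControl replicate 1, the 1 siControl library with reads. The cause of the other changes was not tested. Of 64 alternative ratios, 3 changed sign, each with 1 library left out, in the ratios Asns/Atf4 (-0.48 to 0.69), Herpud1/Hspa5 (-0.10 to 0.51) and Xbp1/Hspa5 (-1.14 to 0.27). Of 153 alternative list medians, 16 moved to the other side of the median gene. Of these, 10 were for translocation and transport. Where each library had to hold 10 counts of a gene, the medians of amino acid supply (0.30), stress transcription factors (0.25) and FGF21 receptors (-0.82) changed side, and so did those of FGF21 receptors with thinned libraries (-1.003), tRNA ligases with no filter (-0.15) and sensors with limma-voom (0.031). The filter of 10 counts drops genes low in either group, so its medians cover only part of each list.

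Replicate numbers are shared between groups, but the deviations of same-numbered libraries correlated at 0.10, 0.13 and -0.03, so the numbers were not taken as pairs. With the replicate block 1 member was called higher (Herpud1, adjusted p = 0.00944) and 1 lower (Ddit3, adjusted p = 0.00082), as without it, and the calls among all genes were 3854 higher and 2912 lower. Depth limits Chac1, Fgf21, Trib3, Asns and Dnajb9, each with under 10 reads in at least 1 siControl library. The filter of 10 counts in every library left 3552 genes.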
